A study of Mus musculus with 2 samples.

Results

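The glucocorticoid receptor Nr3c1, the mineralocorticoid receptor Nr3c2 and 4 glucocorticoid response genes, Fkbp5, Sgk1, Tsc22d3 and Zbtb16, were followed through maps of accessible chromatin from mouse cortex. The 6 genes were chosen by name as a receptor and response set, not by a rule on their signal. Earlier results of these data were known at the time. The genes stand beside all 21755 protein-coding genes of chromosomes 1 to 19 and X. Each locus was taken as the annotated gene body with 10 kb on either side, and each annotated transcription start site with 500 bp on either side was counted as a promoter of its own. The 6 loci together span 1.05 Mb and hold 49 start sites.

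DNase-seq, which sequences the ends left when DNase I cuts exposed DNA in nuclei, was performed on tissue of the left cerebral cortex. The donors were 2 females, each 2 months old, of the B6CASTF1/J strain, the F1 hybrid of C57BL/6J and CAST/EiJ. No treatment is named. The libraries carry the numbers of biological replicates 1 and 2 and of different females, but a single donor entry, and were read as 2 animals. They form 1 group, so no conditions could be compared, the difference between the libraries is the only measure of error, and no significance test was made. The tissue is bulk, so a site open in fewer cells and a site less open in each cell cannot be told apart.

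Corticosterone, the main glucocorticoid of mice, enters cells and binds receptors held by chaperones in the cytoplasm, which then move to the nucleus. Nr3c1 and Nr3c2 are zinc finger nuclear receptors that bind as dimers to palindromic glucocorticoid response elements, a pair of short half-sites facing each other across a spacer, and can raise or lower transcription nearby. In brain, Nr3c2 has the higher affinity and is occupied at low hormone, while Nr3c1 fills as hormone rises with the daily rhythm or stress.

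The whole data set was of similar size in both libraries. Replicate 1 had 128269 peaks and 340004 footprints on these chromosomes and replicate 2 had 119597 peaks and 284583 footprints. A peak is a local maximum of cut density, its signal is the authors' depth-normalized height, and a footprint is a short stretch protected from cutting inside open DNA. If the smallest step of the signal is taken as 1 cut in 1 M, replicate 1 holds 206 M cuts and replicate 2 holds 208 M. Overlapping peaks (1 bp or more) were joined across libraries, and a joined peak with a call in both is termed shared. A joined peak can hold several calls of a library, and its signal there is that of the highest. Peak counts with a library left out are calls before joining, so they are not on the scale of joined peaks. There were 80487 shared peaks among 154149, or 52.2%. Of markers of the tissue, all 6 for excitatory neurons and all 4 for inhibitory neurons had a shared promoter peak, as did 3 of 4 for astrocytes, 2 of 5 for oligodendrocytes, 1 of 4 for endothelium, 0 of 4 for microglia and 0 of 7 for other tissues.

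All 6 genes had at least 1 promoter with a shared peak, beside 64.8% of protein-coding genes. A gene with more start sites has more chances to count, and the 6 had from 2 to 14, beside a median of 3. By start site the count was 30 of 49, beside 52.4% of the start sites of all protein-coding genes. Start sites close together can fall on the same peak, and when those within 500 bp were merged the count was 16 of 29. Taking the strongest promoter peak of each gene, the order from the highest was Fkbp5, Sgk1, Nr3c2, Nr3c1, Zbtb16 and Tsc22d3. Fkbp5, at 5.11 in replicate 1 and 6.20 in replicate 2, lay just above the range of Sgk1, at 4.33 and 5.11. The nearest values were 5.1105 for Fkbp5 in replicate 1 and 5.1097 for Sgk1 in replicate 2. Sgk1 and Nr3c2, at 4.22 and 5.18, overlapped fully. Nr3c2 in replicate 2, at 5.18, also lay above Fkbp5 in replicate 1, at 5.11, so the ranges of Nr3c2 and Fkbp5 overlapped too. The values of the other 3 did not overlap these or each other, Nr3c1 at 2.51 and 2.43, Zbtb16 at 2.28 and 2.31 and Tsc22d3 at 1.55 and 1.56. Across all shared promoter peaks of the genome the median signal was 1.74.

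**Figure D1:**
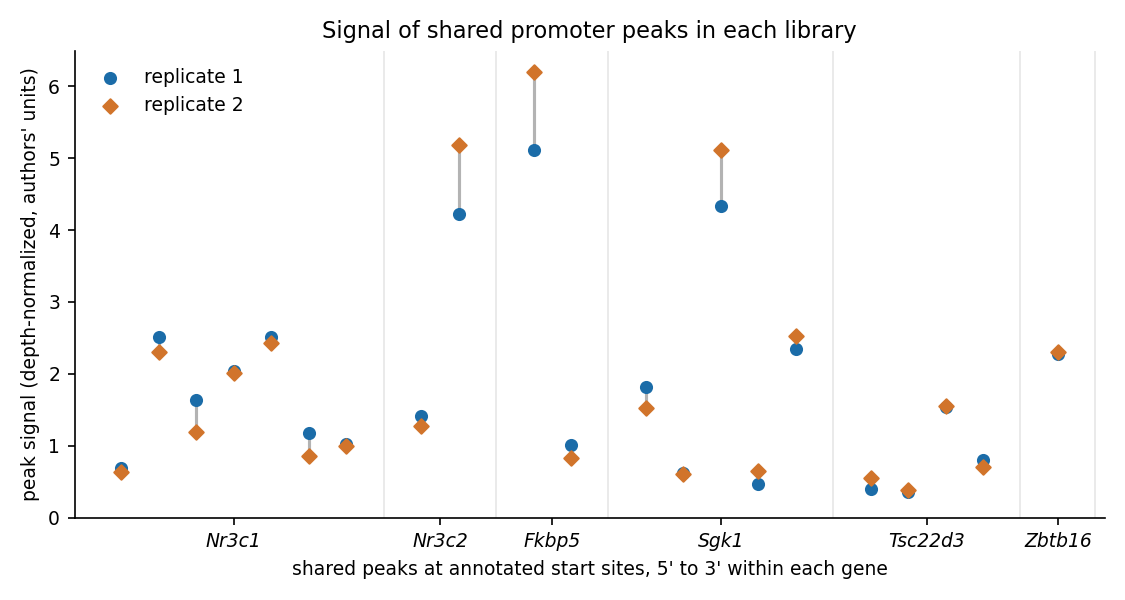
Signal of every shared peak that reaches an annotated start site of the 6 genes, in the authors' depth-normalized units (y axis), ordered from 5′ to 3′ within each gene (x axis); circles are replicate 1, diamonds replicate 2, and a grey line joins the libraries. The highest pair belongs to Fkbp5 at 5.11 and 6.20, and the 3 strongest promoters were higher in replicate 2.

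The receptor Nr3c1 lies on the minus strand of chromosome 18 at 39410545 to 39519421 (mm10), and all 9 of its annotated start sites had a shared peak. Its promoters were packed: 6 of its 8 shared peaks lay between 39486661 and 39491820, around the start sites of 8 annotated transcripts. From 3′ to 5′ along the gene, the first of these peaks had signals of 1.03 and 1.00 in replicates 1 and 2, and the second of 1.18 and 0.860. The following pair had 2.51 and 2.43, then 2.04 and 2.01. The last of the cluster had 1.64 and 1.19, then 2.51 and 2.31. No single start site therefore dominated, and the cluster was as high at its 5′ edge as in its middle. The outermost start site, Nr3c1-209 at 39519421, had a weaker peak, at 0.688 and 0.634. All 7 promoter peaks were higher in replicate 1.

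Outside its promoters Nr3c1 had a single shared peak, at 39411319 to 39411620 near the 3′ end of the gene, with signals of 0.557 and 0.696. A further 2 peaks were found only in replicate 1, at 0.363 and 0.392. The locus thus held 8 shared peaks among 10, the 71.0 percentile among the 200 genes nearest to it in locus length, whose median was 5. It held 43 and 38 footprints in replicates 1 and 2, and 3.71% and 3.38% of its bases were listed with a q-value of the cut rate under 0.05. In both libraries, then, the open sites of this gene were mainly its promoters.

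Nr3c2 lies on the plus strand of chromosome 8 at 76899442 to 77245012. Of its 7 start sites, 5 had a shared peak, and these fell on 2 joined peaks of different width. A wide one of 2200 bp, at 76898881 to 76901080, covered the start sites of Nr3c2-207 and Nr3c2-204 with signals of 1.41 and 1.28. The 9 joined peaks of the locus hold 11 calls of replicate 1 and 13 of replicate 2. Whether the wide one is a single call or several was not examined. Its centre lay 4 bp from a start site of another gene, Gm10649, so it cannot be assigned to Nr3c2 alone by position. A narrow peak of 240 bp lay between 76901981 and 76902220, just upstream of the start sites of Nr3c2-203, Nr3c2-208, Nr3c2-206 and Nr3c2-202, with signals of 4.22 and 5.18. The narrow peak was the strongest site of the locus and lay in intron 1 of the longer transcript Nr3c2-204. The start sites of Nr3c2-201 and Nr3c2-205 had none. The sequence of the narrow peak, from the reference genome (GRCm38.p6, plus strand), is shown because it is the strongest receptor promoter of the set, and capitals mark bases inside a footprint in both libraries:
Nr3c2 narrow promoter peak, chr8:76901981-76902220: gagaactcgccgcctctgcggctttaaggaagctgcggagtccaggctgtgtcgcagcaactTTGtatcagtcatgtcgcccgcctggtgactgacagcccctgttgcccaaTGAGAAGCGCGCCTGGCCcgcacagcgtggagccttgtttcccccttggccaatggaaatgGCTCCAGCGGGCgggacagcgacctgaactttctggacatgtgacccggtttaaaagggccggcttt

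In that stretch, 33 of 240 bases lay in a footprint in both libraries, in 3 runs. The rest of the Nr3c2 locus was sparse, with 6 shared peaks in introns and none above 0.819 in either library. The highest were in intron 3 at 77132941 to 77133160, with signals of 0.819 and 0.735, and in intron 6 at 77189421 to 77189640, with 0.804 and 0.720. Next came a site in intron 3 at 77086146 to 77086360, with 0.368 and 0.624. With 8 shared peaks in 366 kb, Nr3c2 stood at the 38.5 percentile of genes of like length, whose median was 10, and it was the only one of the 6 loci below its length-matched median. Without replicate 1, counted before joining, it held 13 peaks. It held 41 and 40 footprints, and 1.62% and 1.44% of its bases were listed. The 2 receptor genes therefore differed in layout, with many promoter peaks of moderate height at Nr3c1 and a single high one at Nr3c2.

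Fkbp5 encodes a co-chaperone that lowers the hormone affinity of the receptor complex and is itself induced by glucocorticoids. It lies on the minus strand of chromosome 17 at 28399094 to 28517527, with 14 annotated start sites, of which 2 had a shared peak. These were the internal start sites of Fkbp5-214 and Fkbp5-201, on a peak at 28486041 to 28486300 in intron 4 of the longest transcript, with signals of 5.11 and 6.20. A weaker peak beside it, at 28485301 to 28485800, had 1.01 and 0.836. The main site was the strongest promoter peak of the 6 genes and higher than 94.2% of all shared promoter peaks. The part of it upstream of Fkbp5-201, on the gene's strand, carried 5 footprinted runs covering 68 of 151 bases in both libraries, in capitals:
Fkbp5 internal promoter, chr17:28486150-28486300: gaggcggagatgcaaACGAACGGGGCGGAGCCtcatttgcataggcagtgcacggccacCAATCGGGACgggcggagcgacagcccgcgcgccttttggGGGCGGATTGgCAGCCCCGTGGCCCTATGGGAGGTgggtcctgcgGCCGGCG

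The outermost start sites of Fkbp5, those of Fkbp5-207, Fkbp5-202, Fkbp5-206 and Fkbp5-215, had no shared peak within 500 bp. A peak at 28517561 to 28517980 was called there in replicate 2 alone, at 1.21. The same 420 bp were nonetheless listed by cut rate over 100% of their length in replicate 1 and 98.3% in replicate 2. A strong shared peak began 534 bp upstream of the outermost start site, just beyond the window, at 28518061 to 28518280, with signals of 3.77 and 4.24. With a window of 1 kb, or by the peaks of replicate 2 without replicate 1, the count for Fkbp5 was 5 of 14. The remaining start sites, spread along the gene body, had no shared peak under either window. The upstream peak is shown on the gene's strand, with bases footprinted in both libraries in capitals, because it also holds a receptor element described further on:
Fkbp5 upstream peak, chr17:28518061-28518280: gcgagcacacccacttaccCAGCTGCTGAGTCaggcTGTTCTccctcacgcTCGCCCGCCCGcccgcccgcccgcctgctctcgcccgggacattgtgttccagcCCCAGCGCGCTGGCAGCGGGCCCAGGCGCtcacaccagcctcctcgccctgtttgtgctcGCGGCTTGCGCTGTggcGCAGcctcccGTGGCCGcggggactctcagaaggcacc

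In this peak 84 of 220 bases, in 7 runs, lay in footprints of both libraries, and the GC content was 72.3%. A pair of further strong sites lay 5184 and 5674 bp upstream of the gene, at 28522601 to 28522820, with signals of 3.29 and 4.25, and at 28523061 to 28523340, with 4.02 and 4.34. Both sit at start sites of noncoding genes, E230001N04Rik and Gm20109, so they cannot be assigned to Fkbp5 by position alone. Inside the gene body, a site in intron 11 at 28407481 to 28407680 had 1.71 and 2.32 and stood above 92.0% of all shared sites away from promoters; it is named after its value was seen. The locus held 8 shared peaks among 19, the 67.25 percentile for its length, and 7 peaks were called in replicate 2 alone against 4 in replicate 1 alone. Without replicate 1, counted before joining, it held 16 peaks. Footprints numbered 37 and 47, and 5.00% and 3.91% of the bases were listed.

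Sgk1 encodes a serum- and glucocorticoid-induced kinase that acts on ion channels and transporters. It lies on the plus strand of chromosome 10 at 21882184 to 21999903, and 8 of its 11 start sites had a shared peak. The strongest lay just before the start sites of Sgk1-201, Sgk1-209, Sgk1-207 and Sgk1-206, near the 3′ part of the long gene model, in a short peak of 60 bp with signals of 4.33 and 5.11. Its sequence, on the plus strand with the bases footprinted in both libraries in capitals, is shown because it was the shortest peak among the strong promoters:
Sgk1 main promoter peak, chr10:21994581-21994640: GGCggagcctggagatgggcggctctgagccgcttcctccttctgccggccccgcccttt

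Sgk1 had accessible start sites in several other places. The far 5′ start sites of Sgk1-204 and Sgk1-211 had a peak at 1.82 and 1.53, and that of Sgk1-208 had one at 2.35 and 2.53. Weaker peaks reached the start sites of Sgk1-203 and Sgk1-212, at 0.630 and 0.615, and of Sgk1-206, at 0.470 and 0.653. The start site of Sgk1-202 had a peak in replicate 1 alone, at 2.07, the highest signal of any peak of the 6 loci that was called in a single library. Its 260 bp were nonetheless listed by cut rate over 100% of their length in both libraries, with 3 footprints in replicate 1 and 1 in replicate 2. Weak peaks near start sites were also called in replicate 1 alone, at 0.533 before Sgk1-202 and at 0.373 before Sgk1-203 and Sgk1-212. The start sites of Sgk1-205, Sgk1-210 and Sgk1-213 had none in either library.

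Away from promoters, the strongest sites of Sgk1 lay within a few kb upstream of its main promoter, in intron 3 of the long transcript. The first, at 21991341 to 21991540, had signals of 2.26 and 2.60, above 95.1% of shared sites away from promoters, and the second, at 21993081 to 21993300, had 1.89 and 1.86. In intron 1, a site at 21923481 to 21923980 had 1.26 and 0.874. The locus held 15 shared peaks among 29, the 95.25 percentile for its length, whose median was 6. A further 12 peaks were found in replicate 1 alone, from 0.102 to 2.07 with a median of 0.380, and 2 in replicate 2 alone. Without replicate 2 the count of peaks before joining was 29, beside the 15 shared. Footprints numbered 73 and 46, and 8.54% and 5.36% of the bases were listed.

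Tsc22d3, also called Gilz, encodes a leucine zipper protein that mediates anti-inflammatory actions of glucocorticoids. It lies on the minus strand of the X chromosome at 140539528 to 140600659, and 4 of its 6 start sites had a shared peak. The 3 start sites of the short transcripts Tsc22d3-201, Tsc22d3-205 and Tsc22d3-202 shared a peak at 140542921 to 140543320, with signals of 1.55 and 1.56, and a broader one beside it, at 0.799 and 0.711. The start site of the long transcript, Tsc22d3-203, had 2 weak peaks, at 0.402 and 0.557 and at 0.354 and 0.384. The start sites of Tsc22d3-204 and Tsc22d3-206 had none. A further weak peak beside the long transcript's start site was called in replicate 1 alone, at 0.208. The short transcripts' promoter was thus the more open in both libraries.

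The remaining shared sites of Tsc22d3 lay within a few kb of the long transcript's start, with 0.557 and 0.466, 0.489 and 0.471, and 0.237 and 0.293. The interior of the gene between the promoters had no shared peak. A peak there at 140544781 to 140544940 was called in replicate 2 alone, at 0.941, and 0% of its bases were listed in replicate 1. The locus held 7 shared peaks among 10, the 79.0 percentile for its length, whose median was 4. Without replicate 2 it held 12 peaks before joining. A total of 25 and 17 footprints were called, and 5.10% and 3.81% of the bases were listed. Its strongest peak was below the genome's median for shared promoter peaks, the only one of the 6 genes for which this was so. Tsc22d3 is also the only one of the 6 on the X chromosome. The median covers all chromosomes together, and promoters of the X were not examined apart.

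Zbtb16 encodes PLZF, a zinc finger transcriptional repressor and a glucocorticoid response gene in many tissues. It lies on the minus strand of chromosome 9 at 48654297 to 48836222, and both of its start sites fell on a shared peak with signals of 2.28 and 2.31. A neighbouring peak at 48835615 to 48835880 was called in replicate 2 alone, at 1.17, although its 266 bp were listed by cut rate over 100% of their length in both libraries. The locus held the most shared peaks of the 6, 22 among 53, the 96.75 percentile for its length, whose median was 7. Of the 22, 14 lay in the gene body. The others lay close together beyond its 3′ end, from 48644001 to 48650720, and several were 920 bp wide. They count in that percentile, which was not computed without them. It also had the most footprints, 128 and 80, and the largest part listed by cut rate, 10.3% and 5.90%, the 99.0 percentile. Footprints and listed bases were both higher in replicate 1. With each library taken by itself, before joining, the peaks numbered 54 in replicate 1 and 29 in replicate 2.

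The strongest site of Zbtb16 outside its promoter lay deep in the gene body, in intron 3 at 48737541 to 48737820, with signals of 2.01 in replicate 1 and 3.64 in replicate 2. It stood above 96.9% of all shared sites away from promoters, and exceeded the gene's own promoter in replicate 2 but not in replicate 1. Next came another site in intron 3, at 48740261 to 48740460, with 1.70 and 2.23, and a site in intron 2 at 48803581 to 48803820, with 1.33 and 1.93. All 3 were higher in replicate 2. Both intron 3 sites are shown on the gene's strand, with bases footprinted in both libraries in capitals, because they combine high signal with receptor elements:
Zbtb16 intron 3 peak, chr9:48737541-48737820: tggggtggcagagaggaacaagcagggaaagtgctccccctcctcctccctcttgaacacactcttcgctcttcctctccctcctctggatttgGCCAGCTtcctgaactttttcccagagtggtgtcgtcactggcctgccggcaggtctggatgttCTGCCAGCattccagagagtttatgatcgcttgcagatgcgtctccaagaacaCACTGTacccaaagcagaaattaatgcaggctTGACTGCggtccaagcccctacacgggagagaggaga
Zbtb16 second intron 3 peak, chr9:48740261-48740460: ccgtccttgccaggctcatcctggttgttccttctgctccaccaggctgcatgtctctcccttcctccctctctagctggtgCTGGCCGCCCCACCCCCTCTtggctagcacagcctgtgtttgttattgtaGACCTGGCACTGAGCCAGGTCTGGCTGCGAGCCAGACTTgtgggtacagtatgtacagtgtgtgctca

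The 5′ part of the Zbtb16 gene body differed in the 2 libraries. From 48804000 to 48834503, a stretch of 30.5 kb that begins 1719 bp from the 5′ end of the gene, 20 peaks in a row were called in replicate 1 alone. Their signals ran from 0.242 to 0.756 with a median of 0.407. Over the stretch, 20.7% of bases were listed by cut rate in replicate 1 and 0.128% in replicate 2, with 37 footprints against 0. The difference was thus seen in the cut-rate table as well as in peak calling. The stretch was picked by the peak calls, and both come from the same 2 libraries, so this is not separate evidence. Runs of this kind were not limited to Zbtb16: of 22753 runs of peaks called in replicate 1 alone the median length was 1 peak and the longest 54, and 74 were of 20 peaks or more.

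**Figure D2:**
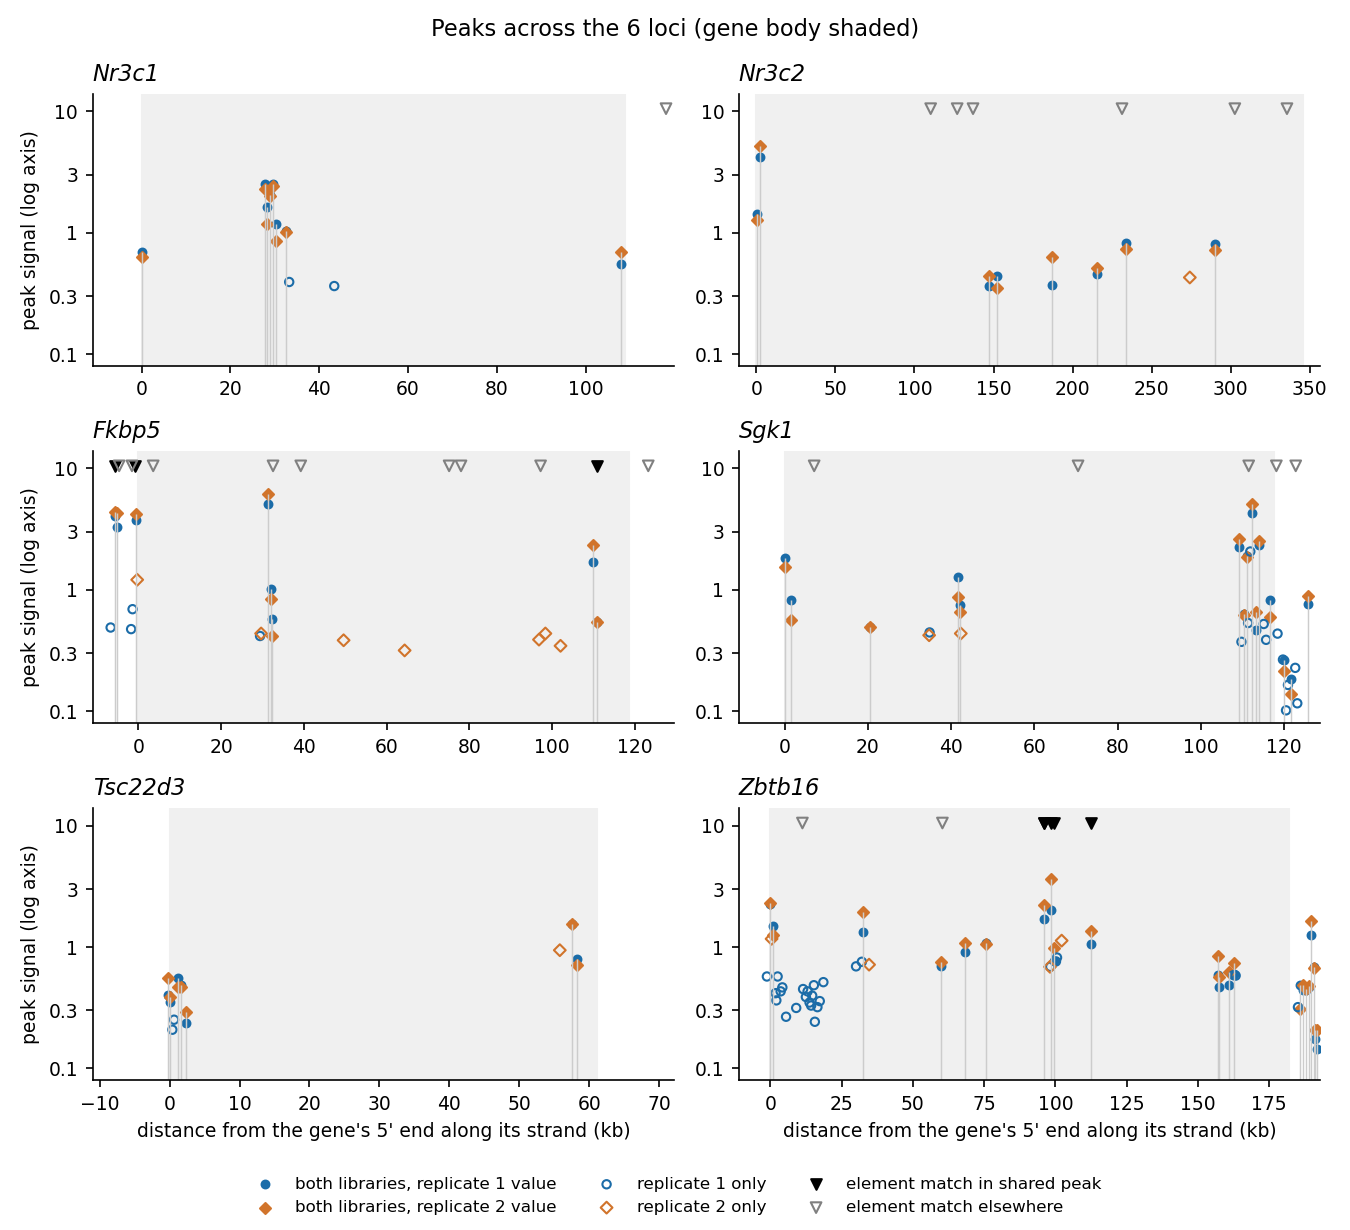
Peak signal (log axis) against distance from the 5′ end of each gene along its strand in kb, with the gene body shaded; filled symbols are peaks found in both libraries (circles replicate 1, diamonds replicate 2), open symbols peaks of 1 library, and triangles matches to the receptor element (black in shared peaks, open elsewhere). The Nr3c1 promoters cluster near 30 kb, open circles fill the 5′ part of Zbtb16, and 5 black triangles mark its intron 3.

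Taking the 6 loci as a set, 68 of 130 merged peaks were shared, or 52.3%, close to the 52.2% of the genome. Of the others, 47 were found in replicate 1 alone and 15 in replicate 2 alone, and Zbtb16 held 27 of the 47. Counting the peaks of 1 library by itself, before joining, gave 129 without replicate 2 and 96 without replicate 1. These counts are not on the scale of the 68 and 130 joined peaks. Shares differed between genes, from 8 of 9 at Nr3c2 and 8 of 10 at Nr3c1 to 22 of 53 at Zbtb16 and 8 of 19 at Fkbp5. Of the footprints, 35.7% of the 347 in replicate 1 overlapped one in replicate 2, beside 39.5% genome-wide, and 45.9% of the 268 in replicate 2 overlapped one in replicate 1, beside 46.9%. By gene, the share of replicate 1 footprints met in replicate 2 ran from 23.4% at Zbtb16 to 56.8% at Fkbp5.

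**Figure D3:**
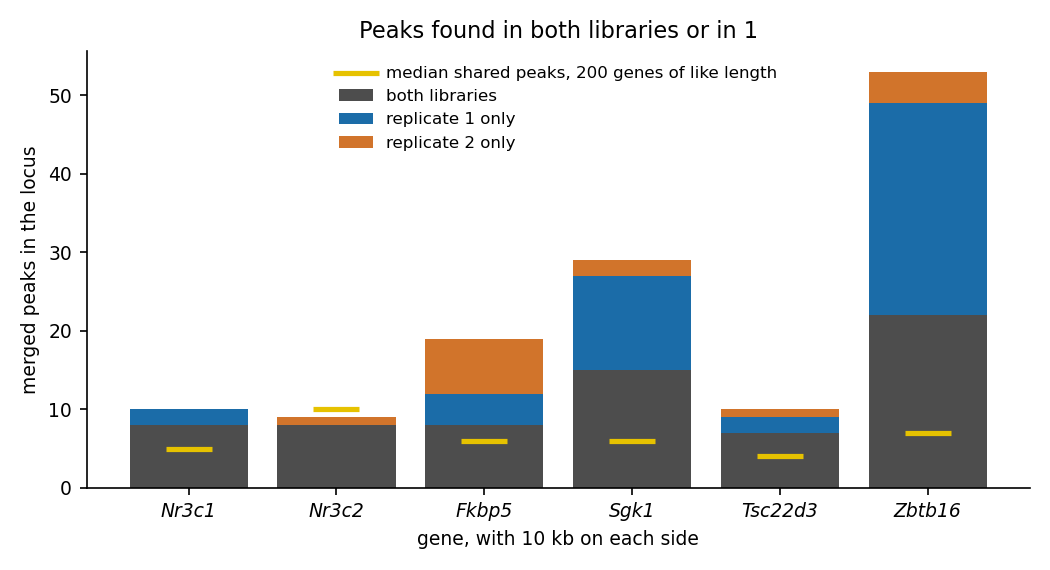
Number of merged peaks in each locus (bars, from 0), divided into those found in both libraries (dark grey), in replicate 1 alone (blue) and in replicate 2 alone (orange); yellow marks give the median number of shared peaks of the 200 protein-coding genes nearest in length. Shared peaks exceed that median at 5 loci, and Zbtb16 has 27 peaks in replicate 1 alone.

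Signals of shared peaks were close between the libraries. The median log2 ratio of replicate 1 to replicate 2 was -0.028 over the 68 peaks, beside -0.096 with an SD of 0.35 over all shared peaks. Relative to that genome median it was 0.069, so its sign depends on the centring, and 0 of the 68 differed by more than 2-fold, beside 0.970% of all shared peaks. The loci did not lean the same way. At Nr3c1 1 of 8 shared peaks was higher in replicate 2 and the median ratio was 0.082, whereas at Zbtb16 18 of 22 were higher in replicate 2 and the median was -0.26. Over the genome 60.6% of shared peaks were higher in replicate 2. The difference between these loci was not tested.

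**Figure D4:**
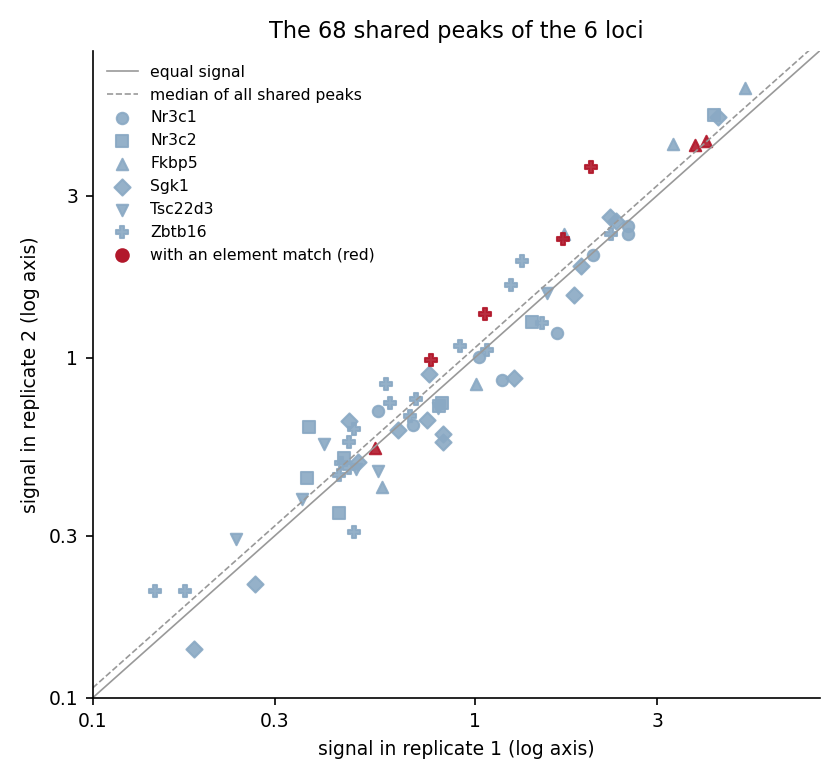
Signal of each of the 68 shared peaks in replicate 1 (x) and replicate 2 (y), both on log axes and in depth-normalized units; marker shapes are genes, red marks peaks with a receptor element match, the solid line is equal signal and the dashed line the median ratio of all shared peaks. The 4 red crosses of Zbtb16 lie above the solid line, the highest at 2.01 and 3.64.

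The receptor element was searched as the half-site GNACA, any 3 bases, and its reverse complement TGTNC, a palindrome of 13 letters that reads the same on both strands. It occurred 31 times in the 6 loci: 12 in Fkbp5, 7 in Zbtb16, 6 in Nr3c2, 5 in Sgk1, 1 in Nr3c1 and 0 in Tsc22d3. Per 100 kb this was 8.67 in Fkbp5, 3.63 in Sgk1, 3.47 in Zbtb16, 1.64 in Nr3c2 and 0.776 in Nr3c1, beside 1.71 over the genome. Of the 31, 8 lay inside a shared peak, 3 in Fkbp5 and 5 in Zbtb16. That is 25.8% of the matches, beside 1.38% of the 43723 matches genome-wide. Shared peaks cover more of these loci than of the genome, 4.64% of Zbtb16 and 1.65% of Fkbp5 beside 1.01%. By peak, 7 of the 68 shared peaks held a match, beside 0.745% of all shared peaks. A match is a run of letters and no binding was measured. Matches were searched in the reference genome only, and the CAST/EiJ allele was not examined.

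The matches inside shared peaks are shown on the strand of their gene with neighbouring bases, from GRCm38.p6. They are the receptor elements that lay in a joined peak called in both libraries. Capitals mark the 13 letters of the element at the coordinates given:
Fkbp5 upstream, chr17:28518180-28518192: ctcgcccgGGACATTGTGTTCcagccccag
Fkbp5 far upstream, chr17:28523178-28523190: cggcggcgGCACAGGATGTTCtttcgctcg
Fkbp5 intron 11, chr17:28406813-28406825: agggttatGTACACTGTGTGCtatcaatgg
Zbtb16 intron 3 a, chr9:48740273-48740285: acttgtggGTACAGTATGTACagtgtgtgc
Zbtb16 intron 3 b, chr9:48740264-48740276: tacagtatGTACAGTGTGTGCtcagccaag
Zbtb16 intron 3 c, chr9:48737602-48737614: gtctccaaGAACACACTGTACccaaagcag
Zbtb16 intron 3 d, chr9:48736508-48736520: gctgtacaGTACACTGTGTGCtctccgaac
Zbtb16 intron 3 e, chr9:48723704-48723716: ctgttttgGTACACTCTGTACttccttatg

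At Zbtb16 all 5 matches in shared peaks lay in intron 3, from 48723704 to 48740285, and 2 of them, a and b, overlap in 1 peak. Besides the peaks already described, the site holding d had signals of 0.770 and 0.984 and the one holding e 1.07 and 1.35. All 4 of these peaks were higher in replicate 2, with the widest gap at element c, where a log2 ratio of -0.85 separated the libraries. Element c was also the only match of the 31 overlapped by a footprint in both libraries, over 7 of its 13 bases in replicate 1 and 10 in replicate 2. Element d overlapped footprints in replicate 2 alone. Elements a, b and e overlapped no footprint in either library, and a and b lie at the edge of their peak, which starts at 48740261. Of all protein-coding loci, 530 of 21755 had at least 1 match in a shared peak, 4 had at least 3, and 1, Zbtb16, had 4 or more. The other 3 of those 4 were Fkbp5, Camta1 and Gm37240, and the last 2 have loci of 965 kb and 1411 kb against 202 kb for Zbtb16. Counting peaks in place of matches, Zbtb16 was again the only locus with 4.

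At Fkbp5 the upstream element lies 659 bp before the outermost start site, inside the peak printed above, and was covered over all 13 bases by a footprint in replicate 2 and by none in replicate 1. Its far upstream element fell in the peak at the noncoding start sites, and the intron 11 element in a weak site at 28406565 to 28406985, with signals of 0.547 and 0.543. A footprint reached neither in either library. Over the genome, 18.3% of the 602 matches in shared peaks were overlapped by a footprint in replicate 1 and 19.3% in replicate 2. Of the peaks called in replicate 1 alone, 3 held a match, 1 each in Fkbp5, Sgk1 and Zbtb16, and the Zbtb16 one lies in the 30.5 kb stretch.

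The other 20 matches lay outside every peak, and 19 of them also outside the listed cut-rate stretches of both libraries. The remaining 1, in Fkbp5 intron 4 at 28484953 to 28484965, was listed in both libraries, with lowest q-values of 2.6e-05 and 0.0084. A footprint overlapped 6 of its bases in replicate 2 and none in replicate 1. The consensus form, with the half-site GAACA on both sides, occurred 4 times in the loci and was in a shared peak in 0 of them, beside 1.81% of 3379 such matches genome-wide; this form was singled out after the matches were seen. These 4 are shown for contrast with those in shared peaks, with the same use of capitals:
Sgk1 intron 3, chr10:21993702-21993714: atgcggaaaGAACAGAATGTTCtcggagat
Fkbp5 intron 8, chr17:28420322-28420334: cacattcaGAACAGGGTGTTCtgtgctctt
Fkbp5 intron 4, chr17:28442420-28442432: ttgtttgaGAACAGCTTGTTCtaggctttc
Nr3c2 intron 6, chr8:77202000-77202012: ctgtccacaGAACAGAATGTTCgatttatc

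The Sgk1 match lies 182 bp before the start site of Sgk1-202, among the open sites upstream of the main promoter. Its middle was 48 bp from the nearest peak of replicate 1 and 408 bp from that of replicate 2, and 34 bp and 181 bp from the nearest listed stretch. It was therefore close to open DNA in both libraries without being called open. The other 3 lay 12366 bp or more from the nearest peak of replicate 1, although the Fkbp5 intron 8 match was 350 bp from a peak of replicate 2. All 6 matches in Nr3c2 and the single one in Nr3c1 lay outside peaks.

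In signal, the 7 shared peaks with a match had a median of 1.97, beside 0.712 for the 61 without, and beside 0.694 for peaks with a match genome-wide. Of the 7, 6 were higher in replicate 2, with a median log2 ratio of -0.34. Without a match it was 32 of 61, at -0.0099. Of the 600 peaks with a match genome-wide, 59.5% were higher in replicate 2, at -0.099. As 4 of the 7 peaks are in Zbtb16, their lean and that of the locus cannot be told apart.

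Other motifs were counted within 100 bp of the centre of each shared peak, on both strands. The SP motif GGGCGG, common in GC-rich promoters, was found in 20 of the 68 peaks, beside 20.6% of all shared peaks, and lay at the strong promoters of Nr3c2, Fkbp5 and Sgk1. The AP-1 motif TGANTCA was in 5, beside 9.41%, including the Fkbp5 upstream peak. CTCF, searched as CCANNAGNNGGC, was in 4, beside 10.4%, and the NEUROD motif CAGATGG in 3, beside 8.63%. None was found for CRE (TGACGTCA, 0.923% of all shared peaks), EGR (GCGTGGGCG, 0.435%), NRF1 (GCATGCGC, 1.51%) and the full NFI palindrome (TTGGC, 5 bases, and its reverse complement, 0.0572%). In all, 27 of the 68, or 39.7%, held at least 1 of these 8 motifs, beside 45.1% of all shared peaks.

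The wider pathway was read from 6 lists with 48 genes, of which 35 had a shared peak at a start site, beside 64.8% of all protein-coding genes. All 6 genes of the receptor chaperone complex did, led by the highest promoter signals of the 6 lists by mean over both libraries, 8.04 and 9.37 at Hspa8 and 6.47 and 8.53 at Hsp90ab1. All 7 coregulators did as well, led by the chromatin remodeller Smarca4 at 6.75 and 8.08 and the coactivator Ncoa2 at 5.24 and 6.68. Of other response genes 14 of 16 had one, led by Ddit4, an inhibitor of mTOR signalling, at 6.41 and 7.59 and the transcription factor Klf9 at 5.32 and 6.77, while Lcn2 and Plin4 had none. All 6 promoters named here exceeded that of Fkbp5, the strongest of the receptor and response set, in both libraries.

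The remaining 3 lists had fewer open promoters. None of the 4 liver response genes, among them G6pc and Igfbp1, had a shared promoter peak. Of the steroid enzymes 4 of 7 had one, led by the steroid reductase Srd5a1 at 5.02 and 5.55 and H6pd, which supplies cofactor to the cortisone reductase, at 2.62 and 2.30, while the adrenal enzymes Cyp11b1 and Cyp11b2 had none. Of the stress axis 4 of 8 had one, all of them low, with the receptors Crhr1 at 1.10 and 1.41 and Crhr2 at 0.610 and 0.706, and Avp and Crhbp had none.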

How the data were processed

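Per the labels, the build was mm10; which aligner and callers were used is not given in the sources used here. The authors called peaks on each library alone, in a larger list (used here) and a smaller one, and deposited a signal per peak, the height of the cut density scaled to depth. Deposited footprints carry a false discovery rate, a fraction of 0.01 throughout, and the deposited cut-rate tables hold q-values (adjusted p-values) under 0.05. Comparing signal between libraries rests on that scaling, and CAST/EiJ reads may align less often; alleles were not analysed here. Genes came from GENCODE M21 and sequence from GRCm38.p6 (RefSeq), the same build; coordinates are 1-based. Intron numbers refer to the longest protein-coding transcript of each gene. Merging, start site windows, motif searches and length percentiles were computed with Python 3.11.15, pandas 2.3.3 and NumPy 2.4.6 and tested on simulated data, and figures drawn with matplotlib 3.10.9. The members and lists were chosen with earlier results of these data known. The genes named were the 6 members and, of each pathway list, the 2 with the highest mean promoter signal and the first 2 in alphabetical order without a shared promoter peak. The peaks named were every promoter peak, the 3 strongest shared peaks elsewhere in a locus and those with a receptor element. Alternatives were the smaller list, overlap of 50% of both peaks, each library alone, other windows, flanks, q-values and motif letters.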

Additional observations from a re-analysis of the deposited data

How the results depend on the processing

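Of 32 alternatives for the set as a whole, 28 were counted as close to the reported value. The band was wide. For the 68 shared peaks it took in 47 with the smaller list, 96 without replicate 1 and 99 with a flank of 50 kb. Merging start sites within 500 bp gave 16 start sites with a shared peak in place of 30. Leaving out a library gave 96 to 129 peaks, counted before joining, in place of 68 shared ones, the higher value without replicate 2. A q-value limit of 0.001 gave 2.88% of the bases listed in place of 4.35%, the mean of both libraries. Centring on all shared peaks turned the median log2 ratio from -0.028 to 0.069. Element matches in shared peaks ranged from 6 to 11 around the reported 8, with 6 under the half-site AGAACA with at most 2 mismatches, which occurred 107 times in the loci, 5.61% of them in shared peaks beside 0.638% genome-wide. Under those letters the counts were 1 in place of 3 at Fkbp5, 4 in place of 5 at Zbtb16 and 1 in place of 0 at Sgk1, and whether the same sites were found was not examined. The smaller peak list left 47 shared peaks and 4 elements at Zbtb16. For single genes, 77 of 96 alternatives were counted as close to the reported value. These include the element counts of Nr3c1, Nr3c2 and Tsc22d3, which were 0 as reported and 0 under every alternative. With 1 group of 2 libraries the libraries' own difference is the only error known. No paired analysis was possible because the libraries form 1 group.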
